A study of Mus musculus with 4 samples.

Results

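The genes described here encode the kinases and mediators of the DNA damage checkpoint. They are Atm, Atr, Chek1, Chek2, Wee1, Prkdc, Mdc1, Trp53bp1, Clspn and Atrip, 10 of the 31709 genes on a one-color Agilent mouse array. They were chosen by name for their known function, with earlier results of these data known. The claspin gene was sought as Claspn, a spelling that no spot carries, and was taken as Clspn through its description as claspin in the files. RNA came from mouse embryonic fibroblasts (MEFs), connective tissue cells grown from mouse embryos, of 2 genotypes, p53+/+ (wild type, WT) and p53-/-, the latter lacking the tumor suppressor p53. Each genotype was measured without treatment and with doxorubicin, a topoisomerase II poison that breaks DNA, which gives 4 conditions with 1 array each, all on 1 slide. The labels give neither the dose nor the time of doxorubicin for the arrays, nor the age or strain of the embryos, nor whether the MEFs of a genotype were pooled. With 1 array per condition no difference has a replicate check, no p-value was calculated, and array and condition cannot be told apart.

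The checkpoint starts with 3 large kinases of the same family. ATM is activated at double-strand breaks, ATR is brought by its partner ATRIP to single-stranded DNA at stalled forks and resected ends, and DNA-PKcs, the product of Prkdc, acts in end joining. MDC1 binds phosphorylated histone H2AX and 53BP1, the product of Trp53bp1, binds modified nucleosomes next to a break, and both hold other factors there. ATM activates CHK2, whereas ATR activates CHK1 with the help of claspin, and WEE1 places the inhibitory phosphate on the cyclin-dependent kinases that CDC25 phosphatases remove. CHK1, claspin and WEE1 are best known in S and G2 phase, when they restrain origin firing and mitotic entry. Most of this regulation is by phosphorylation, which an array of RNA does not measure.

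Each array carried 12 distinct 60-base oligonucleotides (probes) for these genes, 1 for each of 8 genes and 2 each for Atm and Trp53bp1. Probe positions below are those of the files (mm9), and the files do not give the exon, intron or UTR they lie in. Of the sequences, 3 probes are shown. The Chek2 probe holds codons of a motif shared by kinases. The Prkdc probe and the fainter Atm probe were spotted 10 times on every array, so that their values carry a measured spread. The Chek2 probe at chr5:111294547-111294606 (plus strand) reads through without a stop codon, and the capitals mark its codons for the histidine, arginine and aspartate of the catalytic loop that protein kinases share. The Prkdc probe maps to chr16:15839317-15841922 (plus strand), a span of 2606 bases for 60 bases of probe, as for a probe that crosses a splice junction. The fainter Atm probe lies at chr9:53256167-53256226 (minus strand). The last 2 have no capitals, as no part of them was singled out.
Chek2 probe: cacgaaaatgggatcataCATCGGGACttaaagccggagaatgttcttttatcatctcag
Prkdc probe: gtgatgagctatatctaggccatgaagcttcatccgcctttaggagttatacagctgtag
Atm probe: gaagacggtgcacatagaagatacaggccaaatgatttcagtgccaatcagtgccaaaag

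The promoters of 3 of the genes are shown because each holds an E2F site, while Clspn and Mdc1 RNA fell in WT MEFs with doxorubicin and Chek2 RNA did not. Each runs from 250 bases before the start of the gene to 50 after it and is taken from RefSeq (GRCm38.p6), which gave such a sequence for 8 of the 10 genes (not Wee1 or Prkdc). Capitals mark E2F sites (TTTCCCGC or TTTGGCGC or TTTCGCGC or TTTGCCGC) and CCAAT boxes (CCAAT), searched on both strands, and no E2F match overlapped a CCAAT match. Clspn lies at chr4:126556730-126557029 (plus strand), Mdc1 at chr17:35841248-35841547 (plus strand) and Chek2 at chr5:110839733-110840032 (plus strand).
Clspn promoter: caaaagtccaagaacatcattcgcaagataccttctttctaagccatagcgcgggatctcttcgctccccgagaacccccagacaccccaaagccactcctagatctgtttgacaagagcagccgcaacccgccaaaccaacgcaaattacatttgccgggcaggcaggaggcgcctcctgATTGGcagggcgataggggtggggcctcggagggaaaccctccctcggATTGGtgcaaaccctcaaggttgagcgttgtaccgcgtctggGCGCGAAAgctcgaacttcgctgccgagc
Mdc1 promoter: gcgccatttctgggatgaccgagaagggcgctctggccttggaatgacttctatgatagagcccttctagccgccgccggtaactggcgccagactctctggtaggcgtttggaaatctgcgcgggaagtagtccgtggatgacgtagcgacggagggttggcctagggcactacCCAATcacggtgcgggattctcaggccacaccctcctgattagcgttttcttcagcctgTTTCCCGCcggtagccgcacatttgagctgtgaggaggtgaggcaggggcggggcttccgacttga
Chek2 promoter: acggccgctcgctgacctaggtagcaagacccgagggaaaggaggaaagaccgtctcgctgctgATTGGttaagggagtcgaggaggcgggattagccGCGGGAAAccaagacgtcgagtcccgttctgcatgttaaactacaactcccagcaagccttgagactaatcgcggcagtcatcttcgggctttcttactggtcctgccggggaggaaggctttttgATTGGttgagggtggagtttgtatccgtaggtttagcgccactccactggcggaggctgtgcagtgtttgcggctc

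An E2F site was found in these 3 promoters of the 8 and in 2.26% of 32851 promoters of the same length. Only the listed spellings inside the window were counted, so a site of another spelling or cut by its edge could be missed. The Chek1 window ended within such a match, 1 base short of TTTCCCGC read on the other strand. Whether a site continues past that edge was not analysed. The counted E2F site began 21 bases after the start of Clspn, 16 before that of Mdc1 and 152 before that of Chek2. A CCAAT box was found in 5 of 8 (Atm, Chek2, Mdc1, Clspn and Atrip) and in 37.4% of all promoters. A GC box (GGGCGG) was found in 5 of 8 (Atm, Atr, Mdc1, Trp53bp1 and Atrip) and in 35.7% of all. The cell cycle homology region (TTTGAA) and the p53 half-site were found in 0 of 8, against 17.9% and 8.36% of all promoters. A match of letters is a description of these windows and shows no binding.

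Signals are the deposited intensities of each array, averaged over the spots of a probe. Levels are their log2 values relative to the 75th percentile of the same array, which was a signal of 2074 for untreated WT, 1819 for doxorubicin-treated WT, 1881 for untreated p53-/- and 2421 for doxorubicin-treated p53-/- MEFs, and ratios are differences of levels. A ratio counted as measured only if both arrays read the probe well above background, and a gene was called changed at 2-fold or more (a log2 ratio of 1). Repeat spots of 253 probes had a median SD of 0.06 on the log2 scale, averaged over the arrays. That becomes 0.08 once 2 arrays are divided and 0.12 once 2 such ratios are subtracted. Single probes can spread more, up to 0.18 for the fainter Atm probe and 0.14 for Prkdc, both in treated WT MEFs. These SDs cover spots of 1 hybridization and not culture, RNA or labeling. The Trp53 signal was 1228 and 3442 in untreated and treated WT MEFs and 442 and 543 in the libraries labeled p53-/-, and whether that probe lies in the deleted part of the gene was not analysed. Cdkn1a, a p53 target, had a log2 ratio of -4.73 in untreated p53-/- over untreated WT MEFs, which goes with the labels. With doxorubicin Cdkn1a rose in both genotypes, by 2.08 in WT and 2.23 in p53-/- MEFs, and Mdm2, another p53 target, rose by 2.0 in WT and had a ratio of 0.47 in p53-/- MEFs. All 11 fibroblast markers were well above background on the 4 arrays. Of markers of other cell types, Epcam (epithelium) and Cdh5 (endothelium) were not well above background on any array, while 5 to 7 of 8 leukocyte, 3 to 4 of 5 epithelial and 2 to 3 of 4 endothelial markers were. Summed signals in units of the 75th percentile ran from 580 (treated p53-/-) to 871 (untreated WT) for fibroblast, 14.7 to 20.0 for leukocyte, 5.34 to 17.9 for epithelial (highest in treated p53-/-) and 2.33 to 4.20 for endothelial markers, and their part in the values below was not tested.

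In WT MEFs most of the checkpoint genes were lower with doxorubicin, by amounts that ranged widely, and in p53-/- MEFs none passed 2-fold. Of the 8 genes with a measured ratio in WT MEFs, Wee1, Mdc1 and Prkdc fell at least 2-fold, and 0 rose. Clspn was the fourth to fall, by a bound. Among all 17513 genes measured in this comparison, 10.4% fell and 11.0% rose at least 2-fold, so 3 of 8 is a larger share than the background, in a list too short to read more from. The median log2 ratio of the 8 was -0.68, against 0.01 for all genes. In p53-/- MEFs 4 of 9 measured genes (Atm, Atr, Wee1 and Atrip) had ratios within 2 SDs of 0, and 0 fell and 0 rose at least 2-fold, where 6.89% and 9.24% of 16953 genes did, and the median was -0.07. With bulk RNA, fewer cells of a kind and less RNA per cell cannot be told apart.

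**Figure D1:**
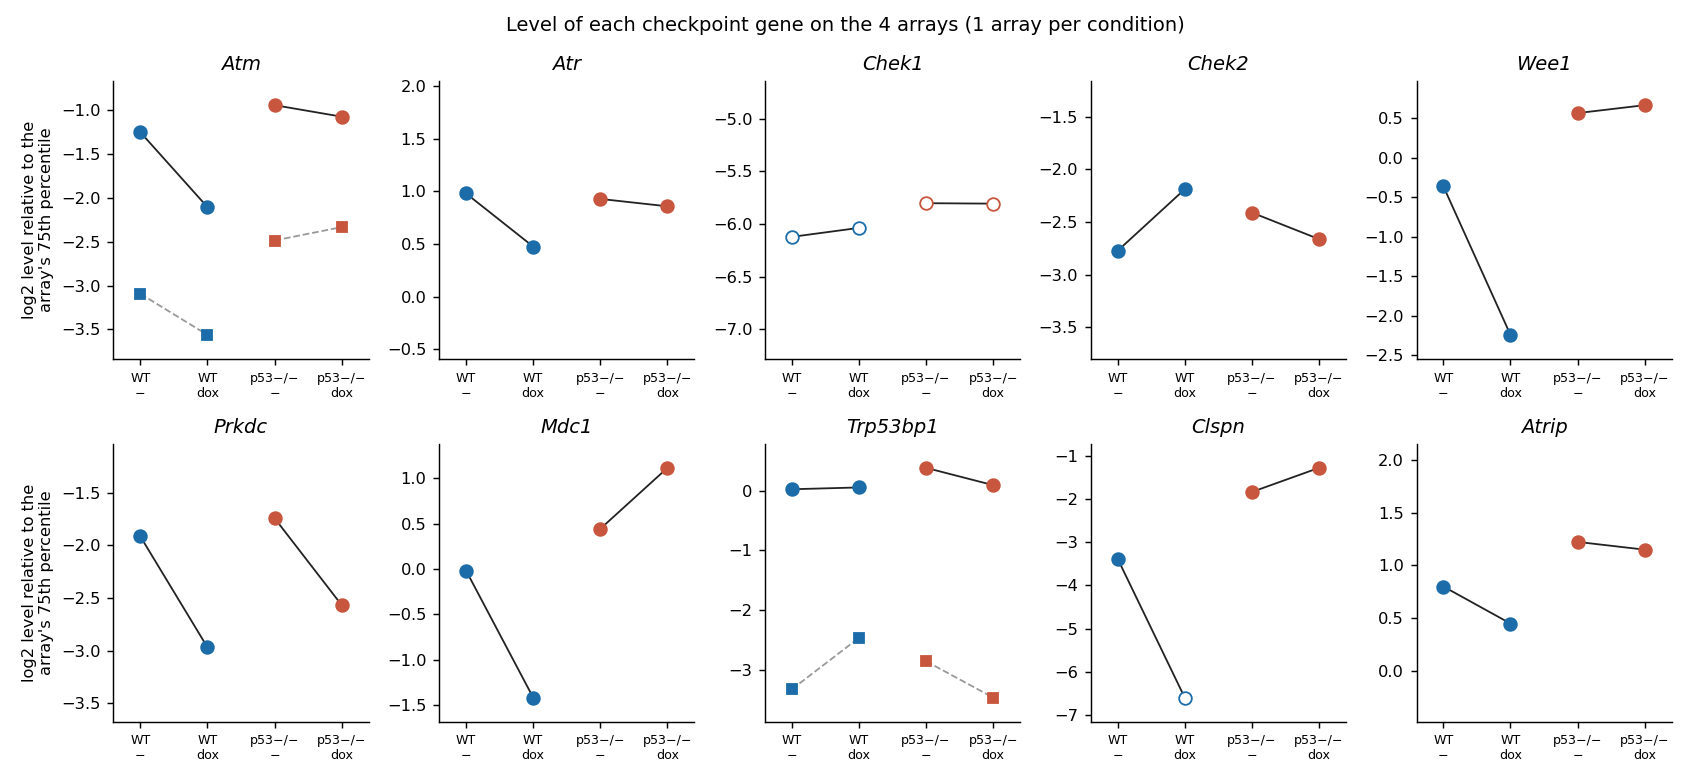
Log2 level of each checkpoint gene after subtraction of the 75th percentile of the array (y axis, own range per panel) in untreated and doxorubicin-treated (dox) WT (blue) and p53-/- (red) MEFs, 1 array per point. Circles are the brighter probe of a gene and squares the fainter one, and an open symbol is a probe not well above background. The treated WT array is the lowest of 4 for Atm, Atr, Wee1, Prkdc, Mdc1, Clspn and Atrip, and the highest for Chek2.

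Among the apical kinases, Atm is represented by its brighter probe at chr9:53245871-53245930 (minus strand). Its signal was 871 in untreated WT, 423 in treated WT, 978 in untreated p53-/- and 1149 in treated p53-/- MEFs. The treated WT array stood apart as the lowest, and the levels of both p53-/- arrays differed by 0.13, less than 2 SDs of a ratio (0.17). The log2 ratio to doxorubicin was -0.85 in WT (1.81-fold lower, under the threshold, but -1.13 and past it with each array scaled to its median) and -0.13 in p53-/- MEFs, a difference of -0.72. The fainter Atm probe, whose sequence is given above, gave signals of 243, 154, 336 and 480 in the same order, with a ratio of -0.47 in WT against 0.15 in p53-/- MEFs. Both probes thus had their lowest level in treated WT MEFs, whereas their small ratios in p53-/- MEFs had opposite signs. With doxorubicin, Atm was 2.04-fold higher in p53-/- than in WT MEFs by the brighter and 2.34-fold by the fainter probe. The brighter probe fell under 2-fold, at log2 ratios of 0.88 after normexp background correction and 0.96 with each array scaled to its median.

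The 10 spots of the fainter Atm probe show the spread of spots within each array. They are not replicates of a condition and hold no spread of culture, RNA or labeling. In signals they ranged from 218 to 275 in untreated WT, from 137 to 212 in treated WT and from 308 to 356 in untreated p53-/- MEFs, and 9 spots ranged from 435 to 507 in treated p53-/- MEFs after 1 outlier was left out. As scaled levels they ran from -3.25 to -2.91 in untreated and from -3.73 to -3.10 in treated WT MEFs. These ranges overlapped through 1 treated spot (-3.10), as the next highest treated spot (-3.53) was below all untreated ones. In p53-/- MEFs the spots ran from -2.61 to -2.40 in untreated and from -2.48 to -2.26 in treated cells, which overlapped as well. All spots of both p53-/- arrays lay above those of both WT arrays. The spot SDs ran from 0.06 to 0.18 on the log2 scale.

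Prkdc, which encodes the catalytic subunit of DNA-PK, was lower with doxorubicin in both genotypes. Among the measured members its ratios differed least between them (-0.23), though Atrip was close (-0.28). The Prkdc signal was 550 in untreated WT, 232 in treated WT, 562 in untreated p53-/- and 408 in treated p53-/- MEFs. Both treated arrays were below both untreated ones. As scaled levels the 10 spots ran from -2.03 to -1.79, -3.14 to -2.71, -1.88 to -1.64 and -2.76 to -2.43 in that order. The ranges overlapped between the untreated and between the treated arrays, but not between treated and untreated ones. Between the treated arrays the overlap came from a single spot on each (-2.71 in WT and -2.76 in p53-/- MEFs). The log2 ratio was -1.05 in WT (2.08-fold lower, just past the threshold) and -0.83 in p53-/- MEFs (1.77-fold lower, under it). The difference of -0.23 was just below 2 SDs of such a difference for single spots. Each Prkdc level is a mean of 10 spots, so this SD overstates its spot error. The difference is therefore not shown to lie within that error. In p53-/- MEFs 9.67% of the measured genes had a lower ratio than Prkdc, which was the lowest of the 9. After the normexp correction the WT ratio was -0.83 and no longer a call, and with each array scaled to its median the p53-/- ratio was -1.12 and became one.

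**Figure D2:**
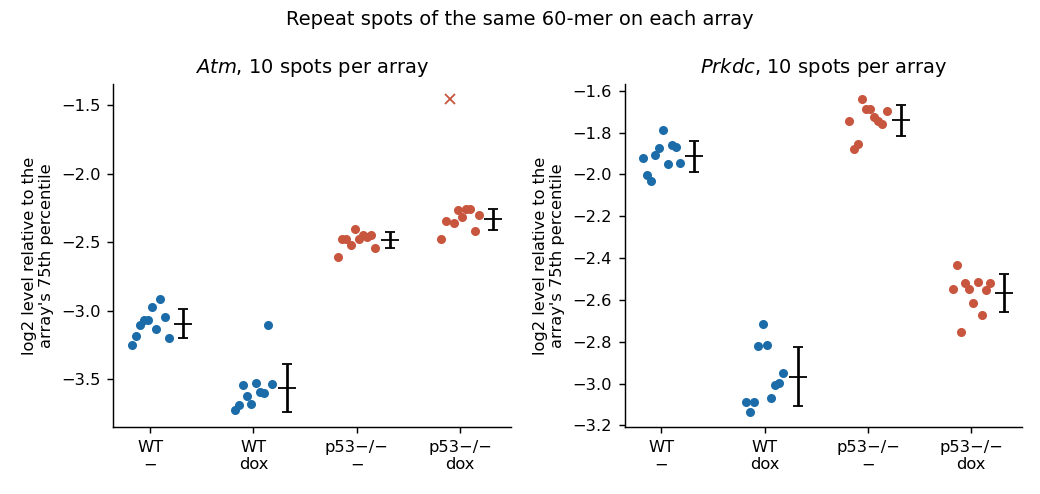
Log2 level (y axis, relative to the 75th percentile of the array) of the 10 repeat spots of the fainter Atm probe and of the Prkdc probe in each condition, with the mean and SD over spots beside them. The cross is the outlier spot left out. The Atm mean is lowest in treated WT and highest in treated p53-/- MEFs. Atm spots overlap within each genotype, in WT MEFs only through a single treated spot. Prkdc spots are lower in both treated arrays than in both untreated ones.

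Atr and its partner Atrip differed less than the genes above. Atr, at chr9:95851956-95852015 (plus strand), had signals of 4088 and 2527 in untreated and treated WT and 3576 and 4385 in untreated and treated p53-/- MEFs. The 3 arrays other than treated WT lay within 2 SDs of their neighbors in the order of levels, and treated WT was 0.38 below the nearest. Its log2 ratio was -0.50 in WT and -0.07 in p53-/- MEFs. Atrip, at chr9:108962343-108962402 (minus strand), had signals of 3607, 2478, 4387 and 5367 in the same order. Its ratio was -0.35 in WT and -0.07 in p53-/- MEFs, again with treated WT lowest. Neither passed 2-fold in any comparison, and the differences of their ratios between genotypes were -0.43 and -0.28.

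Of the transducer kinases, Chek1 gave no ratio. Its probe at chr9:36516068-36516127 (minus strand) had signals of 29.8, 27.7, 33.7 and 43.2, which were not well above background on any of the 4 arrays. These values are no level of the gene, for which the files held this 1 probe. Chek2, at chr5:111294547-111294606 (plus strand), had signals of 304 in untreated WT, 399 in treated WT, 354 in untreated p53-/- and 383 in treated p53-/- MEFs. By the brighter probes, it was the only measured member with its highest level in treated WT MEFs. The log2 ratio was 0.58 in WT (1.5-fold higher) and -0.25 in p53-/- MEFs, a difference of 0.84, and none passed 2-fold. With doxorubicin it was 1.39-fold lower in p53-/- than in WT MEFs, the reverse of the order seen without it, where it was 1.29-fold higher.

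Wee1, the kinase that blocks cyclin-dependent kinase 1, differed most among the 8 members measured on every array when the treated genotypes were compared. Its probe at chr7:117286573-117286632 (plus strand) had signals of 1614 in untreated WT, 384 in treated WT, 2784 in untreated p53-/- and 3842 in treated p53-/- MEFs. Treated WT lay far below the rest, and both p53-/- arrays, whose levels differed by 0.10, lay above untreated WT by 0.93 or more. Wee1 fell 3.68-fold in WT MEFs (log2 ratio -1.88), a ratio below which 2.82% of the measured genes lay. In p53-/- MEFs its log2 ratio was 0.10, and -0.20 with each array scaled to its median. The difference of the ratios was -1.98, and with doxorubicin Wee1 was 7.51-fold higher in p53-/- than in WT MEFs.

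Claspin RNA had the largest contrast, part of which can be given only as a bound. The Clspn probe, at chr4:126270723-126270782 (plus strand), had a signal of 199 in untreated WT and of 18.8, not well above background, in treated WT MEFs. It was 526 in untreated and 998 in treated p53-/- MEFs. Set against the dimmest signal that counted as well above background on that array (44.3), Clspn fell at least 3.94-fold in WT MEFs, and against the brightest of its 153 negative control spots (77.5) at least 2.25-fold. In p53-/- MEFs its log2 ratio was 0.56 (1.47-fold higher). With doxorubicin it was at least 16.9-fold higher in p53-/- than in WT MEFs (at least 9.67-fold against the brightest negative control). It was also the only member that differed at least 2-fold without doxorubicin, 2.92-fold higher in p53-/- MEFs.

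The mediators of the break response did not move alike. Mdc1, at chr17:35996478-35996537 (plus strand), had signals of 2049 in untreated WT, 680 in treated WT, 2559 in untreated p53-/- and 5252 in treated p53-/- MEFs. Treated WT was the lowest and treated p53-/- the highest, and each step in the order of the 4 levels was 0.46 or more. Mdc1 fell 2.64-fold in WT MEFs (log2 ratio -1.40), while in p53-/- MEFs it was 1.59-fold higher with doxorubicin (0.67, under the threshold). The difference of -2.07 was the largest among the 8 members with both ratios, and 2.36% of the 16513 genes compared had a lower one. With doxorubicin Mdc1 was 5.80-fold higher in p53-/- than in WT MEFs.

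Trp53bp1 was measured by 2 probes that disagreed. The brighter, at chr2:121024792-121024851 (minus strand), had signals of 2110, 1889, 2453 and 2583 in untreated WT, treated WT, untreated p53-/- and treated p53-/- MEFs. Its log2 ratio was 0.03 in WT, or -0.25 with each array scaled to its median, and -0.29 in p53-/- MEFs. The fainter, at chr2:121022706-121022765 (minus strand), had signals of 207, 329, 260 and 219. Its ratio was 0.86 in WT and -0.61 in p53-/- MEFs, a difference of 1.47, against 0.32 for the brighter probe. With doxorubicin the fainter probe was lower in p53-/- than in WT MEFs by just over 2-fold, where the brighter gave 0.04 and the mean of both -0.48. By neither probe was treated WT the lowest array, unlike for most other members. The brightest negative control on the untreated p53-/- array had a signal of 250.1, close to the fainter probe there.

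**Figure D3:**
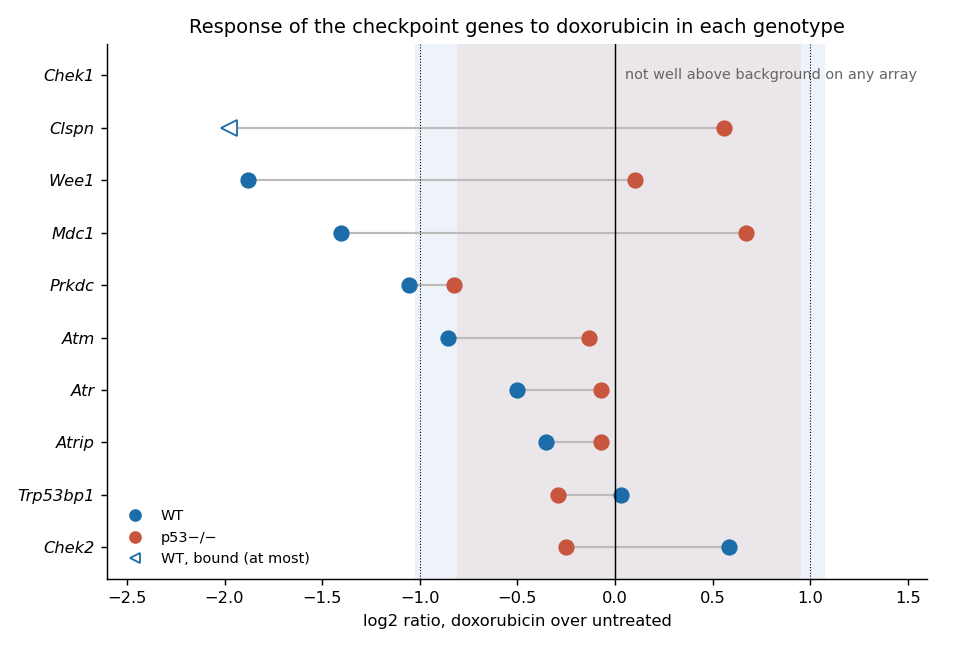
Log2 ratio of doxorubicin-treated over untreated MEFs (x axis) for each checkpoint gene by its brighter probe, in WT (blue) and p53-/- (red) MEFs, 1 array over 1 array. The open triangle is the upper limit of the Clspn ratio in WT MEFs, dotted lines mark 2-fold, and the shading spans the 10th to the 90th percentile of all measured genes (-1.03 to 1.08 in WT, -0.81 to 0.95 in p53-/- MEFs). The distance between the symbols is widest for Clspn, Mdc1 and Wee1, and narrow for Prkdc.

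Between the genotypes without doxorubicin, 1 of 9 measured members (Clspn) was at least 2-fold higher in p53-/- MEFs and 0 were lower, where 2.15% and 2.61% of 17286 genes were. The median log2 ratio of p53-/- over WT was 0.36, against 0.00 for all genes, and 8 of the 9 were above 0. Atr was the exception at -0.05, or 0.00 with the percentile taken over the probes well above background on all 4 arrays. With doxorubicin, 3 of 8 (Wee1, Mdc1 and Atm) were at least 2-fold higher in p53-/- MEFs and 0 were lower, where 11.9% and 10.3% of 17892 genes were, and Clspn was higher by its bound. These counts use the brighter probe of Trp53bp1, whose fainter probe was lower past 2-fold. The median of the 8 was 0.55. These comparisons share their arrays with the doxorubicin ratios above and add no separate evidence. The difference of the ratios, WT minus p53-/-, passed 2-fold for 2 of 8 (Mdc1 and Wee1), both negative, and for 0 in the other direction (the fainter Trp53bp1 probe, not counted, passed there), against 9.86% and 8.37% of 16513 genes.

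Other genes of the checkpoint were taken from 5 lists with 57 genes, of which 54 were measured. In WT MEFs 17 of the 54 fell and 1 rose at least 2-fold, with a median log2 ratio of -0.43, and in p53-/- MEFs 1 fell and 1 rose, with a median of 0.17. Among all measured genes, 10.4% fell and 11.0% rose at least 2-fold in WT MEFs, and 6.89% and 9.24% did in p53-/- MEFs. The same shares apply to the counts of each list and of the proliferation markers below. The sensors of damage and stalled forks gave 5 of 15 that fell in WT MEFs and 0 that rose. They were Timeless, a fork protection factor (-3.14), Etaa1 (-1.77) and Topbp1 (-1.61), which both activate ATR, and Rpa2 (-1.56) and Rpa1 (-1.55), subunits of the single-strand binding protein RPA. Their lowest ratio in p53-/- MEFs was that of Hus1 (-0.36), and Rpa2 rose there (1.09). At the other end in WT MEFs was Rad9a (0.95), which with Hus1 belongs to the clamp that recruits TOPBP1.

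The effectors and brakes downstream of the checkpoint kinases held the greatest number of lower genes. In WT MEFs 8 of 14 fell, with Plk1, a mitotic kinase, lowest (-3.29), and the median was -1.17. The only one to rise was Ppm1d (1.17), a phosphatase known as a p53 target that switches the checkpoint off. In p53-/- MEFs 0 of the 14 passed 2-fold, from Btrc (-0.78) to Ppm1d (0.81). Cdk1, the kinase that WEE1 inhibits, had the largest difference between genotypes (-3.53). Without doxorubicin 5 of the 14 were at least 2-fold higher in p53-/- MEFs, where 2.15% of all measured genes were. Ccnb1, the cyclin partner of Cdk1, was highest (1.28).

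Among break mediators and ubiquitin ligases, 3 of 11 fell in WT MEFs, namely Bard1 (-1.32), H2ax (-1.14), whose product is the histone MDC1 binds, and Mad2l2 (-1.14), and Babam1 was highest (0.42). In p53-/- MEFs Bard1 had the highest ratio (0.91), and Babam2, listed as Bre, fell (-1.06). The partners of DNA-PK in end joining differed from Prkdc itself. Of 6, 0 passed 2-fold in either genotype, from Xrcc5 (-0.36) to Nhej1 (0.71) in WT and from Xrcc4 (-0.47) to Lig4 (0.92) in p53-/- MEFs, and their median in WT MEFs was 0.08. Of 8 relatives of the apical kinases and their cofactors, Telo2, which helps to fold these kinases, fell in WT MEFs (-1.35) and Atmin was highest (0.34), while in p53-/- MEFs 0 passed, from Smg1 (-0.75) to Atmin (0.19).

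**Figure D4:**
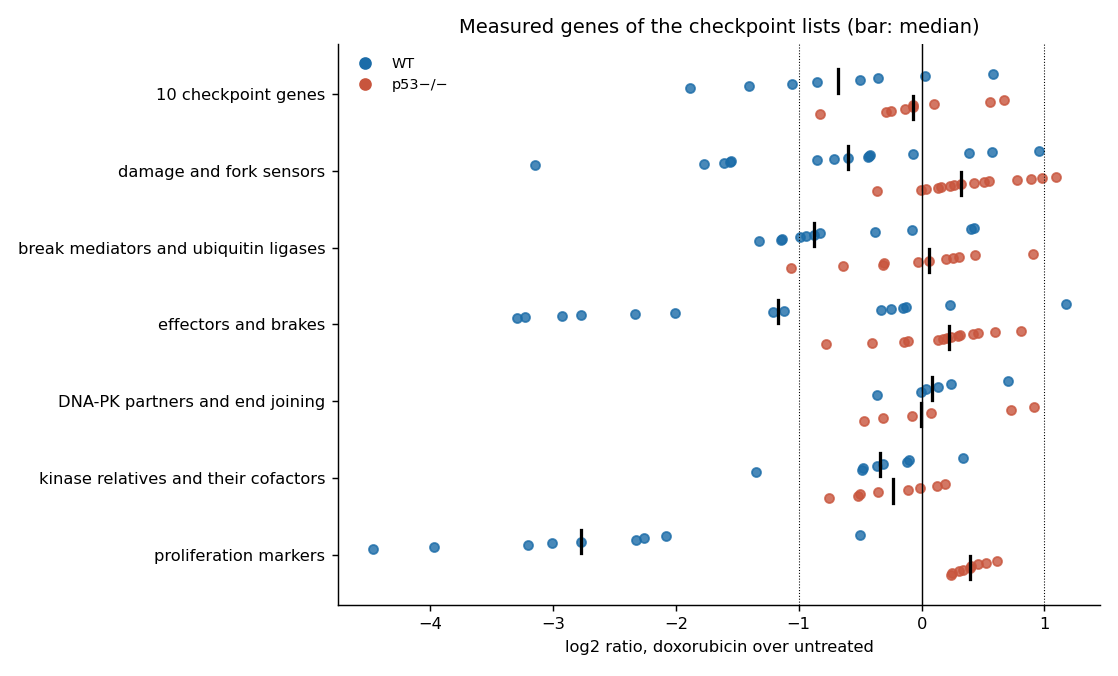
Log2 ratio of doxorubicin-treated over untreated MEFs (x axis) for the measured genes of each list (1 point a gene, WT blue, p53-/- red), with the median as a bar and dotted lines at 2-fold. WT points spread to the left in the sensors, the effectors and the proliferation markers, while all p53-/- points but Rpa2 and Babam2 lie between the dotted lines.

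Markers of proliferating cells moved with some of the checkpoint genes but not with others. Of 9 (Mki67, Pcna, Top2a, Mcm2, Mcm6, Ccna2, Ccne1, E2f1 and Cdt1), 8 fell in WT MEFs, with a median of -2.77 and values from -4.47 (Top2a) to -0.50 (E2f1), and 0 passed 2-fold in p53-/- MEFs, with a median of 0.39. Their summed signal in units of the 75th percentile of the array was 57.2 in untreated WT, 10.1 in treated WT, 85.6 in untreated p53-/- and 110 in treated p53-/- MEFs, which is the order of the levels of Wee1, Mdc1 and Clspn. Atr, Chek2, Prkdc and Trp53bp1 had other orders. By the brighter probes, Atm and Atrip departed from it only between the p53-/- arrays, by less than 2 SDs. The part of proliferation in the checkpoint genes' values was not tested. The genes whose 4 levels, each centered on its own mean, lay nearest to those of Wee1 among 16512 were Cdca7 and, after a transcript without a gene name here, Hjurp, at root mean square distances of 0.06 and 0.10 on the log2 scale over the 4 arrays. Nearest to Mdc1 were Plekhf1, Lin54 and Pdlim3, each at 0.07. With 4 arrays such likeness is a description only.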

How the data were processed

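RNA of 4 samples, 1 per condition, was hybridized to Agilent mouse arrays on 1 slide. Per the labels, the authors labeled 200 ng of total RNA with Cy3 from oligo-dT primers, which favors sequence near the 3' end. The deposited intensity of each spot is the processed signal of Feature Extraction (10.7.3.1), background-subtracted but not scaled between arrays. The deposited table of all arrays equaled it at 100% of spots (relative tolerance 0.0001). The deposited flags, a score of 0 or 1, mark outliers and spots well above background. Outlier spots were left out (145 to 168 per array; 0 were saturated), spots were averaged per probe, and the 75th percentile over 39429 probes was subtracted. Genes were represented by the probe of highest mean. RefSeq (GRCm38.p6) named 30180 probes, 26055 of them by transcript accession, and 9249 kept the name in the files.

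The members, the lists and the rule for named genes (all members, p53 checks, the highest and lowest of each list, and the 3 nearest genes of members differing 2-fold between genotypes) were chosen with earlier results of these data known. Beyond the rule, sensors and mediators that fell were named after their values were seen. The number of arrays limits the precision. Alternatives covered scaling, normexp background correction (offset 50, limma 3.58.1 in R 4.3.3), dim probes, probe choice and the fold threshold. Ratios were computed in Python 3.11.15, and the code was tested on simulated data.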

Additional observations from a re-analysis of the deposited data

Results flagged for a closer look

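Mdc1 moved at least 1.5-fold in opposite directions in the genotypes, 2.64-fold lower with doxorubicin in WT and 1.59-fold higher in p53-/- MEFs, a difference of log2 ratios of -2.07. The difference was not tested, since each condition had 1 array. The range over the alternative settings was -2.10 to -2.02.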

How the results depend on the processing

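Of 336 values of single genes under alternative settings, 293 moved by less than the spread of repeat spots and 43 by more. Many of the 293 could not move. The deposited table and the 2 settings that changed only the filter on dim probes left every measured ratio as it was. The mean over probes could move only Atm and Trp53bp1, which have 2 probes each. All 9 called values kept their sign, and 2 fell under 2-fold in at least 1 setting, namely Prkdc in WT MEFs (-0.83 after normexp) and Atm in p53-/- over WT with doxorubicin (0.96 with each array scaled to its median, 0.88 after normexp). Scaling to the array median shifted the all-gene median to -0.27 for WT and to -0.30 for p53-/- MEFs. The members' median was then -0.96 in WT and -0.37 in p53-/- MEFs, where 1 member (Prkdc) fell. In WT MEFs Atm (-1.13) became the fourth with a measured ratio to fall, Clspn not being counted here. Of all genes 1319 rose and 2792 fell in WT MEFs (against 1930 and 1828). In p53-/- MEFs 955 rose and 2098 fell (against 1567 and 1168). With the mean over probes the members' median in WT was -0.58. At 3-fold, 1 member with a measured ratio (Wee1) fell in WT MEFs and 0 differed between untreated genotypes. Clspn, whose fall in WT MEFs is known only by a bound, is not in the first count. At 1.5-fold, 1 rose and 1 fell in p53-/- MEFs, 2 were higher in untreated p53-/- MEFs, and 1 had a positive difference of ratios. The counts at 3-fold and 1.5-fold are given without the share of all genes, so they cannot be set against a background. Without the filter on dim probes 4901 genes rose and 2868 fell in WT, and 4719 and 2353 in p53-/- MEFs. The cause of these shifts was not tested. No paired analysis was possible because each condition had 1 array, and for the same reason no array could be left out. A slide block was not run, as all arrays share 1 slide. Signals near background limit Chek1 and Clspn, and the fainter Trp53bp1 probe.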
